A study of Mus musculus with 6 samples.

Results

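The 36 genes described here are the immediate early and activation-induced genes of CD4 T cells and were chosen by name for that role. They were found by symbol among the 23282 rows of each library. All 36 were listed, and 35 of them passed the filter on low values together with 11279 genes in all, while Dusp5 did not. The RNA came from CD4 T cells of C57BL/6 mice in 2 groups of 3 samples, to compare cells with and without AMPK, the energy-sensing kinase whose catalytic subunit α1 is encoded by Prkaa1. WT mice were Prkaa1 fl/fl without Cre, and AMPK KO mice were Prkaa1 fl/fl with CD4Cre, so both groups carried the floxed allele. CD4Cre acts in the thymus, where CD8 lineage cells also pass through a stage with CD4, and in the T cells that follow. The methods give female mice of 6 to 8 weeks unless stated otherwise. Cells of spleen and lymph nodes rested for 1 h and were then stimulated through CD3 and CD28 (2 µg/mL). Stimulation lasted 24 h according to the labels and 6 h according to the methods. Every sample was stimulated, so the induction of these genes was not measured, only their level after it. The study describes its samples as biologically independent, and the labels do not say which mice they came from, so the p values measure the spread between these samples.

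Immediate early genes are transcribed within minutes of a signal without new protein synthesis. In T cells, the antigen receptor and CD28 drive calcium, MAP kinase and NF-κB pathways. These act on transcription factors that are present before the signal, such as SRF with its ELK partners, CREB, and NFAT. The first products are transcription factors of the EGR, AP-1 and NR4A families. They are followed by feedback proteins that switch the signal off, such as the dual specificity phosphatases, and by proteins that destroy short-lived mRNAs.

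Sequence upstream of the start sites was available from RefSeq (GRCm38.p6) for 28 of the 36 genes and was searched on both strands over the 250 bases before each start. Motifs are a description of these letters and carry no statement on binding. The cAMP response element TGACGTCA, which CREB and ATF proteins recognise, occurred upstream of Btg2 and Dusp1, in 2 of 28 genes and in 1.77% of all 27025 genes. Its core TGACG, which every such element contains, occurred in 14 of 28 genes and in 19.8% of all genes. The CArG box, the element of SRF, occurred in Dusp5, Egr2 and Zfp36, in 3 of 28 genes and in 1.62% of all genes. TGANTCA, a loose form of the AP-1 element with any base in the middle, was found upstream of Zfp36l1 alone, as TGATTCA. This was 1 of 28 genes against 7.82% of all genes. The AP-1 consensus has C or G in the middle, so this match is not the consensus. The EGR motif GCGTGGGCG was found in 0 of 28 genes and in 0.622% of all genes, while its variant GCGGGGGCG was found upstream of Dusp2, Fosb, Fosl2, Nr4a1, Tagap and Zfp36, in 6 of 28 genes and in 2.93% of all genes. The NR4A sequences are shown because all 3 receptors held the core TGACG (capitals, CGTCA on the other strand) and their levels are compared below. Nr4a1 (chr15:101266596-101266845, plus strand) and Nr4a2 (chr2:57124004-57124253, minus strand) held 4 cores each, and the stretch of Nr4a3 outside its exons (chr4:48045055-48045152, plus strand) held 3.
Nr4a1: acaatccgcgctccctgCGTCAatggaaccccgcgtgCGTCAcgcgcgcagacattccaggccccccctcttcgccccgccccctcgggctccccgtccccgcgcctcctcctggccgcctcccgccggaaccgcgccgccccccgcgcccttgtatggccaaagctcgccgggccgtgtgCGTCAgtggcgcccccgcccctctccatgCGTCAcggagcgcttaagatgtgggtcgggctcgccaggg
Nr4a2: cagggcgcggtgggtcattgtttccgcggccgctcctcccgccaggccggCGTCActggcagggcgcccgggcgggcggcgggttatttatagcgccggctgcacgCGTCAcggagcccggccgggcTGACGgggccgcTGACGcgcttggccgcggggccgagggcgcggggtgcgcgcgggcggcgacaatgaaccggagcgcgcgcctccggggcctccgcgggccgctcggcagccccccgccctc
Nr4a3: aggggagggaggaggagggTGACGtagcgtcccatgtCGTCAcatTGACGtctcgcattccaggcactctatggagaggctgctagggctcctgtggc

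Dusp1 (chr17:26508520-26508722, minus strand) and Btg2 (chr1:134079156-134079405, minus strand) are shown because both passed the test between the genotypes, in opposite directions, and share the whole response element (capitals). Egr2 (chr10:67537619-67537868, plus strand) is shown for its CArG box (capitals), which 3 of the windows of its 5 listed start sites held. The stretches of Nr4a1, Dusp1 and Egr2 lay inside the span of the gene but outside its exons in the GENCODE annotation, since longer transcripts begin further upstream, and those of Nr4a2, Nr4a3 and Btg2 lay upstream of the gene.
Dusp1: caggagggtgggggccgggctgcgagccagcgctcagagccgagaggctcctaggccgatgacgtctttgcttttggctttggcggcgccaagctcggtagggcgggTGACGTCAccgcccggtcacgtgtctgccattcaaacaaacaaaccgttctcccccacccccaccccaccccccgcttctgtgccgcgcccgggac
Btg2: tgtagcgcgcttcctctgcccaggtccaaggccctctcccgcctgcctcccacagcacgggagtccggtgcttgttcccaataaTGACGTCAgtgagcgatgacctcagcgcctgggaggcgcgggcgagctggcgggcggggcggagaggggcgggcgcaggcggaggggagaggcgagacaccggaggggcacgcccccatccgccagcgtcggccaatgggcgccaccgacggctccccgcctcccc
Egr2: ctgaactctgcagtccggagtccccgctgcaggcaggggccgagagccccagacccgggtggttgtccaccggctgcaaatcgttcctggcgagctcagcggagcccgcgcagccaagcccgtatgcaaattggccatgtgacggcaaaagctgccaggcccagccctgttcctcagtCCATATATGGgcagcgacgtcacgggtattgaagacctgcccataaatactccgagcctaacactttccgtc

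Reads on genes numbered 9575096 to 10168121 per WT library and 10515155 to 11185360 per AMPK KO library. Rn45s, the precursor of ribosomal RNA, took 20.7% to 24.9% of them in WT libraries and 8.48% to 10.8% in AMPK KO libraries. Prkaa1 stood at 4.64, 5.24 and 4.86 in WT and at 4.08, 4.72 and 4.67 in AMPK KO, on the deposited scale of log2 of the normalised CPM plus 1. The groups overlapped (difference -0.43, adjusted p = 0.357, limma), and since the reads come from 3′ ends and the place of the deletion is not given in the sources used here, Prkaa1 did not check the labels. Xist, which is transcribed from the inactive X chromosome, stood at 0.93 to 2.16 in WT and at 7.55 to 7.92 in AMPK KO, and Y-linked Ddx3y stood at 8.44 to 8.53 and at 6.93 to 7.28. The low Xist of WT and the Ddx3y of every library go against the female mice of the methods, and sex and genotype cannot be told apart. The T cell markers Cd3e and Cd4 were present in every library, at 6.50 to 7.38 and at 6.14 to 6.83.

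Of the 35 tested genes, 8 passed the test between AMPK KO and WT, with Fosb, Ier3, Ier5 and Dusp1 higher in AMPK KO and Egr1, Egr3, Btg1 and Btg2 lower. Over all tested genes, 5.65% passed, 2.54% higher and 3.1% lower. Of those calls 45.1% were higher, and 32.6% were when libraries were scaled to the reads outside Rn45s, a scaling under which the same 8 genes and Egr2 passed. At an unadjusted p under 0.05 stood 14 of the 35, against 21.3% of all genes. The median difference was 0.08 over the 35 genes and 0.02 over all tested genes, and 19 of the 35 had a higher mean in AMPK KO. The test was limma with the adjusted p taken over all genes tested. The count of 8 became 2 without WT 1, WT 3 or AMPK KO 1, when 1.13%, 1.24% and 1.52% of all genes passed, and 6 without WT 2, when 6.45% did. Without AMPK KO 2 it became 15, when 11.0% of all genes passed, and without AMPK KO 3 it was 8, of which 7 were shared, when 4.11% did.

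**Figure D1:**
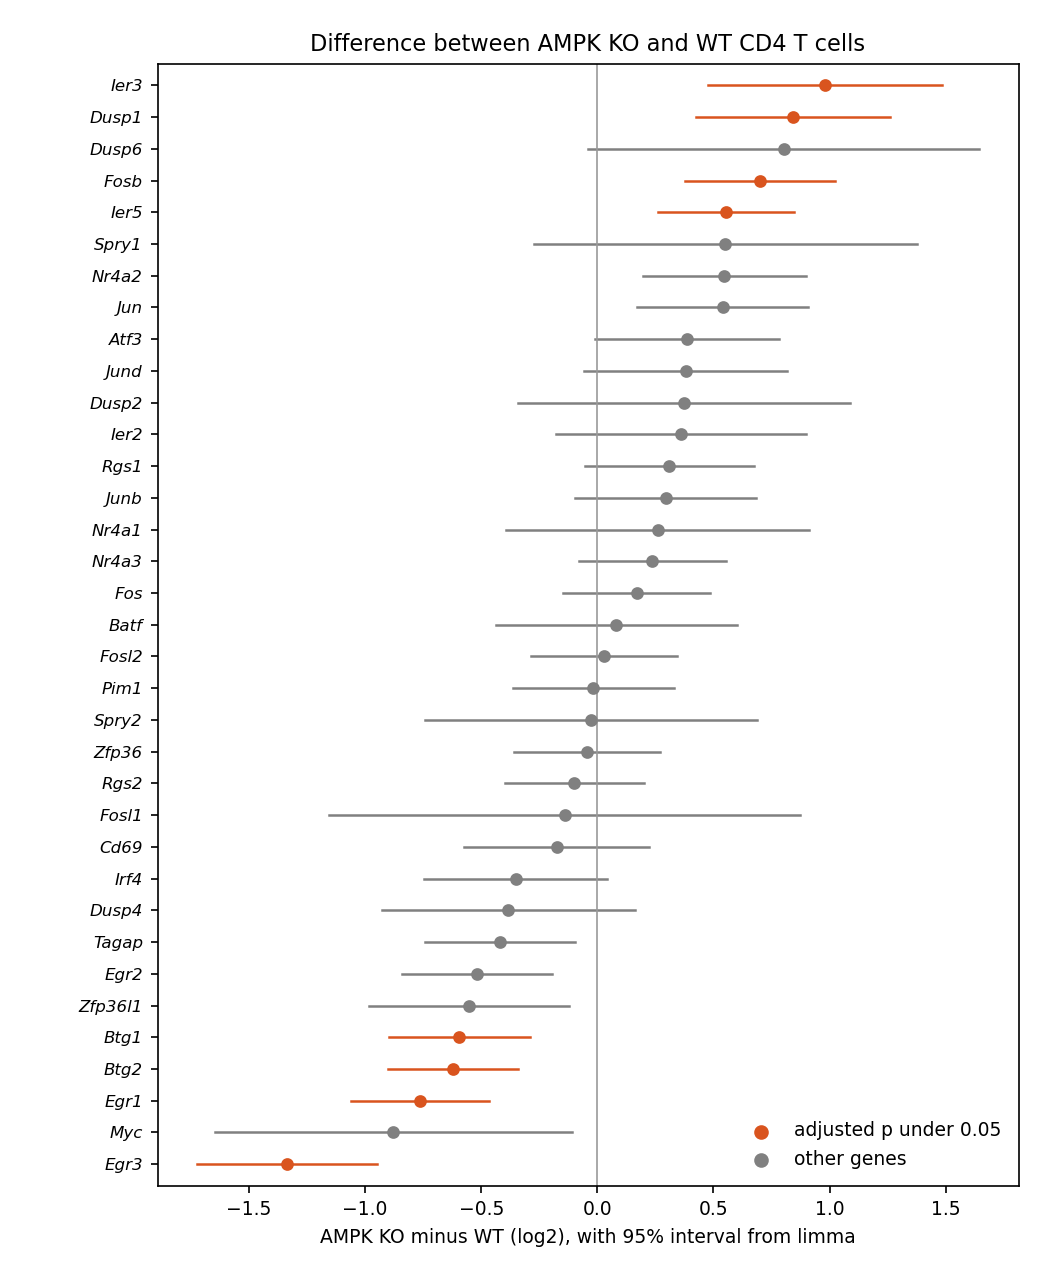
Difference between the mean of AMPK KO and the mean of WT on the log2 scale for the 35 tested genes, with 95% intervals from limma (n = 3 per group). The 8 genes in orange had an adjusted p under 0.05, 4 on each side of 0, from -1.34 for Egr3 to 0.98 for Ier3.

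A second pattern ran across the genotypes. Over all 11279 genes, the deviations of WT 2 from its group mean correlated with those of AMPK KO 1 (r = 0.17) and AMPK KO 3 (r = 0.24), and those of AMPK KO 2 correlated with WT 1 (r = 0.15) and WT 3 (r = 0.20). WT 2 and AMPK KO 2 correlated at -0.32. Deviations cancel out within each group, so these correlations follow in part from one another. They are across genes, which are not independent replicates, and the labels name no batch that fits this division. The division was seen in these libraries over all genes, so the values along it are a description with no test. Without overlap between the genotypes stood 12 of the 35 genes, 5 higher in AMPK KO and 7 lower, against 25.6% of all genes (11.6% higher and 14.0% lower). Without overlap between WT 2, AMPK KO 1 and AMPK KO 3 on one side and WT 1, WT 3 and AMPK KO 2 on the other stood 10 genes, against 21.5% of all genes. All 10 were higher in WT 2, AMPK KO 1 and AMPK KO 3, a direction that 11.9% of all genes had, while 9.56% had the opposite one. The remaining 13 genes separated neither way. The median difference along the division, taken within genotype, was 0.23 over the 35 genes and -0.01 over all genes. Of each gene's spread over the 6 libraries, the larger share went to genotype for 21 genes and to the division for 14.

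**Figure D2:**
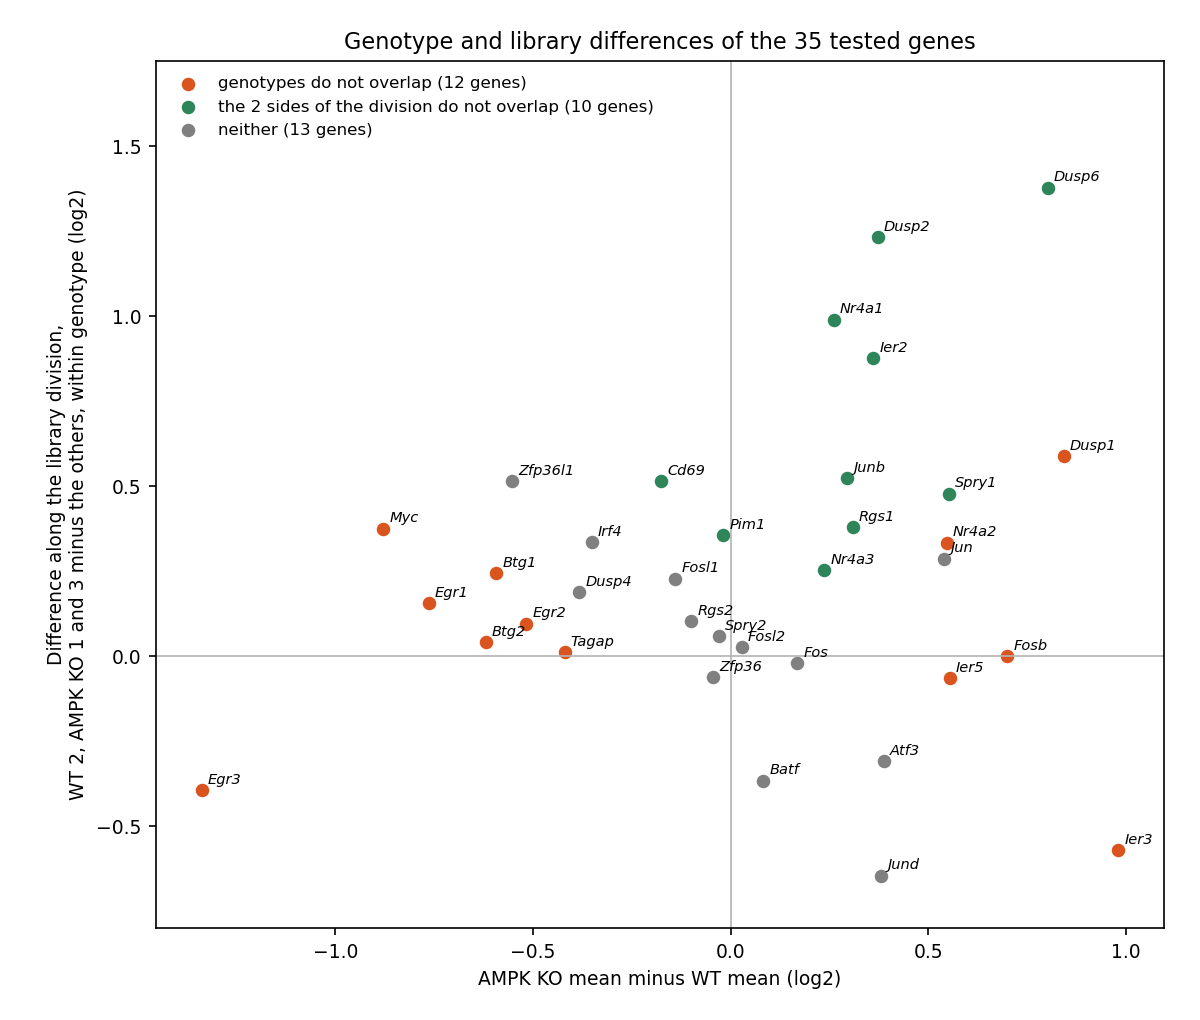
AMPK KO minus WT (horizontal, log2) against the difference along the library division within genotype (vertical, log2), 1 point for each of the 35 tested genes. Genes whose genotypes did not overlap (12, orange) lie to the left and right, and the 10 genes that separated along the division (green) all lie above 0, up to 1.38 for Dusp6.

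All 3 EGR factors had lower values in AMPK KO without overlap between the genotypes, and Egr1 and Egr3 passed the test. These zinc finger proteins are induced through MAP kinase signalling, and Egr2 and Egr3 are known for restraining T cell activation. Egr3 stood at 8.43, 7.98 and 8.39 in WT and at 7.07, 7.17 and 6.55 in AMPK KO. The lowest WT library lay above the highest AMPK KO library by more than the range within WT. Egr3 fell by 1.34 (SE 0.18, adjusted p = 0.000719), which is 2.53-fold lower on the scale of the normalised value plus 1. Egr1 stood at 9.88, 9.90 and 9.76 in WT and at 9.25, 8.92 and 9.07 in AMPK KO. All 3 AMPK KO libraries were below all WT libraries, and Egr1 fell by 0.76 (SE 0.14, adjusted p = 0.00593), or 1.70-fold. Egr2, with 7.51, 7.64 and 7.37 in WT and 7.16, 6.99 and 6.81 in AMPK KO, did not overlap either but missed the threshold (-0.52, SE 0.15, adjusted p = 0.0582), which it passed without AMPK KO 2 (adjusted p = 0.0307). The division took 2.46% to 6.82% of the spread of the 3 genes and genotype 80.4% to 93.0%. The adjusted p of Egr3 lay between 3.76e-05 and 0.0220 when each library was left out in turn, while that of Egr1 was 0.0660 without WT 1. Less RNA per cell and fewer cells with that RNA cannot be told apart in such bulk samples, for these and all genes below.

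Of the NR4A receptors, Nr4a1 varied mainly with the library, Nr4a2 mainly with genotype, and Nr4a3 to a like degree with both. These orphan nuclear receptors are induced by antigen receptor signals, and Nr4a1 (Nur77) serves as a reporter of their strength. Nr4a1 stood at 7.54, 8.02 and 7.50 in WT and at 8.26, 6.96 and 8.62 in AMPK KO. The lowest and the highest library of all 6 were both AMPK KO, and within each genotype the libraries of the first side of the division were higher. The division took 73.0% of the spread of Nr4a1 and genotype 5.68%. AMPK KO minus WT was 0.26 (95% interval -0.39 to 0.91, adjusted p = 0.672). It was 0.42 among WT 2, AMPK KO 1 and AMPK KO 3 and -0.55 among WT 1, WT 3 and AMPK KO 2, so its sign differed between the sides. Without AMPK KO 2, the difference was 0.75 and passed the test (adjusted p = 0.00620). Nr4a2, the relative also called Nurr1, stood at 9.18, 9.22 and 8.85 in WT and at 9.70, 9.32 and 9.88 in AMPK KO. Its genotypes did not overlap, with 64.8% of the spread between them, but it missed the threshold (0.55, SE 0.16, adjusted p = 0.0654). It passed without AMPK KO 2 (0.70, adjusted p = 0.00193) and with a robust spread (adjusted p = 0.0465). Nr4a3 stood at 8.38, 8.54 and 8.21 in WT and at 8.58, 8.44 and 8.82 in AMPK KO, and separated along the division (0.24 between genotypes, adjusted p = 0.384). With each library left out in turn, that genotype difference ranged from 0.13 to 0.32. Of the 3 receptors, 0 passed in limma, against 5.65% of all genes, and 0 in limma voom on the recovered reads. An unadjusted p under 0.05 was held by 1 in each.

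The AP-1 group of 9 genes held 1 gene that passed, Fosb. FOS and JUN proteins pair to form AP-1, and BATF and ATF3 pair with JUN proteins in the same way. Fosb stood at 7.50, 7.11 and 7.12 in WT and at 8.02, 7.81 and 7.99 in AMPK KO. Every AMPK KO library was above every WT library, and Fosb rose by 0.70 (SE 0.15, adjusted p = 0.0159), or 1.62-fold. The call was lost without WT 3 or AMPK KO 1, with an adjusted p of up to 0.114. Its relative Fos, with 7.58, 7.34 and 7.18 in WT and 7.59, 7.53 and 7.49 in AMPK KO, had overlapping groups (0.17, adjusted p = 0.550). Fosl2 ranged from 9.25 to 9.64 over the 6 libraries with a difference of 0.03. Fosl1 had only 5 to 32 reads per library, which left its interval at -1.15 to 0.87.

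Among the JUN genes, the 3 members differed in which libraries were high. Jun stood at 9.05, 8.88 and 8.87 in WT and at 9.72, 9.03 and 9.66 in AMPK KO. AMPK KO 1 and AMPK KO 3 were above all WT libraries and AMPK KO 2 lay among them (0.54, SE 0.17, adjusted p = 0.0832), and without AMPK KO 2 Jun passed (0.76, adjusted p = 0.000458). Junb stood at 9.12, 9.54 and 9.11 in WT and at 9.76, 9.14 and 9.75 in AMPK KO. Here WT 2 was high as well, the 2 sides of the division did not overlap, and the division took 72.0% of the spread (genotype difference 0.29, adjusted p = 0.377). Junb too passed without AMPK KO 2 (0.50, adjusted p = 0.0200). Junb shares exon sequence with Prdx2 on the other strand, which had 388 to 779 reads against 4866 to 10265 of Junb, and how the authors' counting used strand is not given in the sources used here. Jund stood at 9.30, 8.67 and 9.22 in WT and at 9.27, 9.91 and 9.15 in AMPK KO. It ran opposite to Junb, lowest in WT 2 and highest in AMPK KO 2, with a difference of -0.65 along the division. Within each side of the division, Jund was higher in AMPK KO (0.54 and 0.65), and it passed only in a fit with the division as a term (over the 6 libraries 0.38, adjusted p = 0.303). The difference of Jund between genotypes was 0.15 without AMPK KO 2 and 0.18 without WT 2. Batf (4.70 to 5.47 in WT and 4.81 to 5.46 in AMPK KO) overlapped fully, with a difference of 0.08. Atf3, a stress-induced member, stood at 6.21, 5.62 and 5.90 in WT and at 6.34, 6.42 and 6.13 in AMPK KO, and only WT 1 reached into the AMPK KO range (0.39, adjusted p = 0.245). Its difference ranged from 0.24 to 0.54 when each library was left out.

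**Figure D3:**
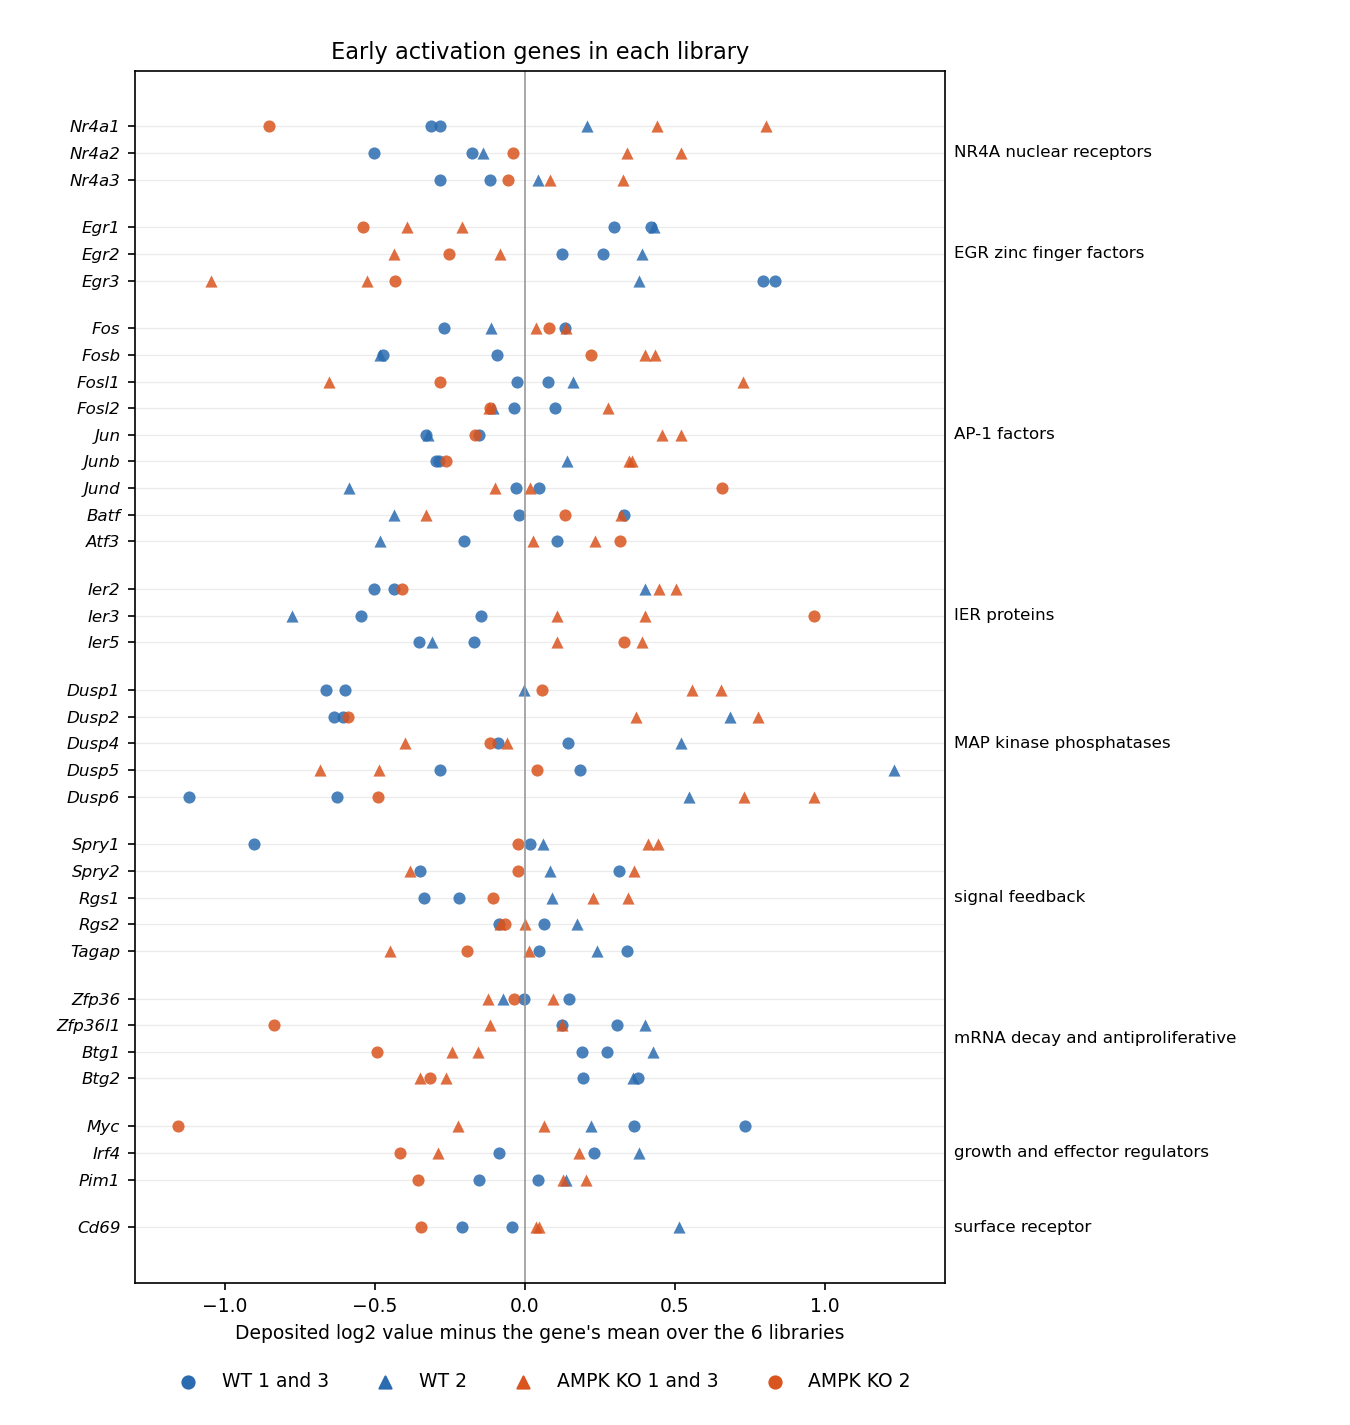
Deposited log2 value of each of the 36 genes minus its mean over the 6 libraries (horizontal), grouped by role; blue marks WT, orange marks AMPK KO, and triangles mark WT 2, AMPK KO 1 and AMPK KO 3. Colours part for Egr1, Egr2, Egr3, Btg1, Btg2 and Ier5, whereas triangles part from circles for Ier2, Junb, Dusp2 and Dusp6.

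Of the 3 IER genes, Ier3 and Ier5 passed the test and Ier2 separated along the division. Ier5 stood at 8.71, 8.57 and 8.53 in WT and at 8.99, 9.21 and 9.27 in AMPK KO, without overlap, and rose by 0.55 (SE 0.14, adjusted p = 0.0305). Ier3, whose product modulates ERK signalling and cell survival, stood at 5.48, 4.85 and 5.08 in WT and at 6.03, 6.59 and 5.74 in AMPK KO. It rose by 0.98 (SE 0.24, adjusted p = 0.0268), or 1.97-fold, and was highest in AMPK KO 2. Ier2 stood at 7.20, 8.03 and 7.13 in WT and at 8.08, 7.22 and 8.13 in AMPK KO. WT 2 was level with AMPK KO 1 and AMPK KO 3, and AMPK KO 2 was level with WT 1 and WT 3, so 83.8% of the spread went to the division and 15.9% to genotype (0.36, adjusted p = 0.443). The difference of Ier2 was 0.66 and passed without AMPK KO 2 (adjusted p = 0.0402), and it was 0.65 without WT 2 (adjusted p = 0.109) and 0.20 without AMPK KO 3 (adjusted p = 0.739). Within the sides, AMPK KO minus WT of Ier2 was 0.08 and 0.06. When single libraries were left out, Ier5 passed only without AMPK KO 2, and Ier3 only without AMPK KO 2 or AMPK KO 3, with adjusted p of up to 0.162 and 0.128.

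The phosphatases encoded by the Dusp genes remove phosphate from MAP kinases. Dusp2 and Dusp6 held the widest differences along the division of all 36 genes, and Dusp1 was the member that passed between genotypes. Dusp2, a nuclear phosphatase, stood at 7.68, 8.99 and 7.71 in WT and at 8.68, 7.72 and 9.09 in AMPK KO. WT 2, AMPK KO 1 and AMPK KO 3 were high and the other 3 libraries were within 0.1 of each other. Along the division the difference of Dusp2 was 1.23, which took 87.2% of its spread, and between genotypes it was 0.37 (95% interval -0.34 to 1.09, adjusted p = 0.564). That genotype difference of Dusp2 was 0.81 without WT 2, 0.76 without AMPK KO 2 and 0.08 without AMPK KO 3, with no call in any of these fits. Dusp6, a cytoplasmic ERK phosphatase, stood at 4.58, 5.76 and 4.09 in WT and at 5.94, 4.72 and 6.18 in AMPK KO. Its difference along the division was 1.38 and between genotypes 0.80 (SE 0.40, adjusted p = 0.259). Dusp6 passed without WT 2 (1.28) or without AMPK KO 2 (1.25), with an adjusted p down to 0.0201. Its genotype difference was 0.44 without WT 3 and 0.52 without AMPK KO 3, with no call. Dusp1 stood at 7.13, 7.72 and 7.06 in WT and at 8.28, 7.78 and 8.38 in AMPK KO. Both patterns showed in Dusp1: all AMPK KO libraries were above all WT libraries, by 0.06 at the closest, and the libraries on the first side of the division were higher within each genotype. Dusp1 rose by 0.84 (SE 0.20, adjusted p = 0.0233), or 1.79-fold, with 69.4% of its spread to genotype and 30.1% to the division. The difference was 0.61 on the first side and 0.69 on the other. The call of Dusp1 was lost without WT 1, WT 3 or AMPK KO 1 (adjusted p of up to 0.151), and Dusp1 shares exon sequence with Ergic1 on the other strand, which had 76 to 230 reads against 1175 to 3947. Dusp4 stood at 4.46, 4.84 and 4.23 in WT and at 4.26, 4.20 and 3.92 in AMPK KO, and overlapped (-0.38, adjusted p = 0.418). Dusp5, with 2 to 34 reads, was below the filter and was not tested, with WT 2 the highest at 2.14.

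Of the genes grouped as signal feedback, 0 of 5 passed in limma, against 5.65% of all genes, and 0 in limma voom. At an unadjusted p under 0.05 stood 1 in each. A count of 0 among so few genes says little. Tagap, a GTPase activating protein of T cells, stood at 9.59, 9.49 and 9.29 in WT and at 8.80, 9.05 and 9.26 in AMPK KO. The groups were apart by 0.035 at the closest (-0.42, SE 0.15, adjusted p = 0.121), and the division took 0.0442% of the spread. Its close relative Tagap1, chosen after its values were seen, stood at 8.71 to 8.96 in WT and 7.42 to 7.85 in AMPK KO, and how reads were divided between such copies is not given in the sources used here. Rgs1, which limits chemokine receptor signals, stood at 6.67, 6.98 and 6.56 in WT and at 7.24, 6.79 and 7.12 in AMPK KO and separated along the division (0.31 between genotypes, adjusted p = 0.319). Rgs2, with 10.38 to 10.64 in WT and 10.39 to 10.47 in AMPK KO, was among the steadiest, with an interval of -0.40 to 0.20. The Sprouty genes, inhibitors of the Ras pathway, were low: Spry1 had 21 to 87 reads (0.55, adjusted p = 0.441) and Spry2 58 to 135 reads (-0.03, adjusted p = 0.973). The difference of Spry1 ranged from 0.24 to 0.72 when each library was left out. Spry1 separated along the division, though by only 0.046 at the closest, from 2.63 in WT 3 to 2.68 in WT 2.

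All 4 genes of mRNA decay and antiproliferative function had lower means in AMPK KO, and Btg1 and Btg2 passed. BTG proteins bring the deadenylase to mRNAs and are known for keeping T cells quiescent. Btg2 stood at 8.81, 8.79 and 8.62 in WT and at 8.08, 8.11 and 8.17 in AMPK KO. It had the cleanest split by genotype of the set, with 96.0% of its spread between genotypes and 0.392% along the division, and it fell by 0.62 (SE 0.13, adjusted p = 0.0143), or 1.54-fold. Btg1 stood at 9.67, 9.91 and 9.75 in WT and at 9.24, 8.99 and 9.32 in AMPK KO, without overlap, and fell by 0.59 (SE 0.14, adjusted p = 0.0268). When single libraries were left out, the adjusted p reached 0.0992 for Btg2 and 0.128 for Btg1, with the calls lost without WT 1, WT 3 or AMPK KO 1 for both and without WT 2 for Btg1. Zfp36l1, which binds AU-rich elements, stood at 9.45, 9.55 and 9.27 in WT and at 9.03, 8.31 and 9.27 in AMPK KO. AMPK KO 2 was far below the rest and AMPK KO 3 was level with WT 3 (-0.55, SE 0.20, adjusted p = 0.126). The difference of Zfp36l1 was -0.27 without AMPK KO 2 (adjusted p = 0.167) and -0.75 without AMPK KO 3, when it passed (adjusted p = 0.0269). Its relative Zfp36 (tristetraprolin) stood between 6.88 and 7.14 in all 6 libraries (-0.04, 95% interval -0.36 to 0.27).

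Myc, Irf4 and Pim1, regulators of growth and effector function, had 0 of 3 calls in limma, against 5.65% of all genes, and 0 in limma voom. An unadjusted p under 0.05 was held by 1 in each. Myc stood at 3.70, 3.56 and 4.07 in WT and at 3.12, 2.18 and 3.40 in AMPK KO. The groups did not overlap, but AMPK KO 2 was far below the other 2 AMPK KO libraries, and with 38 to 140 reads the difference of -0.88 had an SE of 0.36 (adjusted p = 0.175). Without AMPK KO 2 the difference of Myc was -0.52. Irf4 stood at 7.06, 7.21 and 6.74 in WT and at 6.54, 6.41 and 7.01 in AMPK KO, with overlap (-0.35, adjusted p = 0.294). Pim1, a serine/threonine kinase, stood at 9.24, 9.33 and 9.04 in WT and at 9.32, 8.84 and 9.40 in AMPK KO. Genotype took 0.221% of the spread of Pim1 and the division 74.2%. Cd69, the early activation antigen that holds T cells in lymphoid tissue, stood at 7.59, 8.31 and 7.76 in WT and at 7.84, 7.45 and 7.85 in AMPK KO. WT 2 was the highest and AMPK KO 2 the lowest, and the division took 81.4% of the spread (between genotypes -0.18, 95% interval -0.57 to 0.22, adjusted p = 0.633).

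AMPK KO 3 held the highest value of 10 of the 35 genes, among them all 3 NR4A genes and Dusp1, Dusp2 and Dusp6. WT 3 held the lowest value of 11 genes. AMPK KO 2 held the lowest value of 8, among them Nr4a1, Myc and Cd69, and the highest of 3, Jund, Atf3 and Ier3. Of the 35 genes, 29 had the same sign of AMPK KO minus WT on both sides of the division, against 64.4% of all tested genes, and the exceptions were Nr4a1, Fosl2, Batf, Dusp2, Zfp36 and Pim1. Each side sets 1 library against 2, so these differences have no test of their own. In a limma fit with the division as a term, 16 of the 35 genes passed, against 12.7% of all genes. All 8 genes of the first fit were among them, and the additional ones were Nr4a2, Jun, Jund and Atf3, which were higher in AMPK KO, and Egr2, Tagap, Zfp36l1 and Irf4, which were lower. The term was chosen from these libraries, so its p values are too small.

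**Figure D4:**
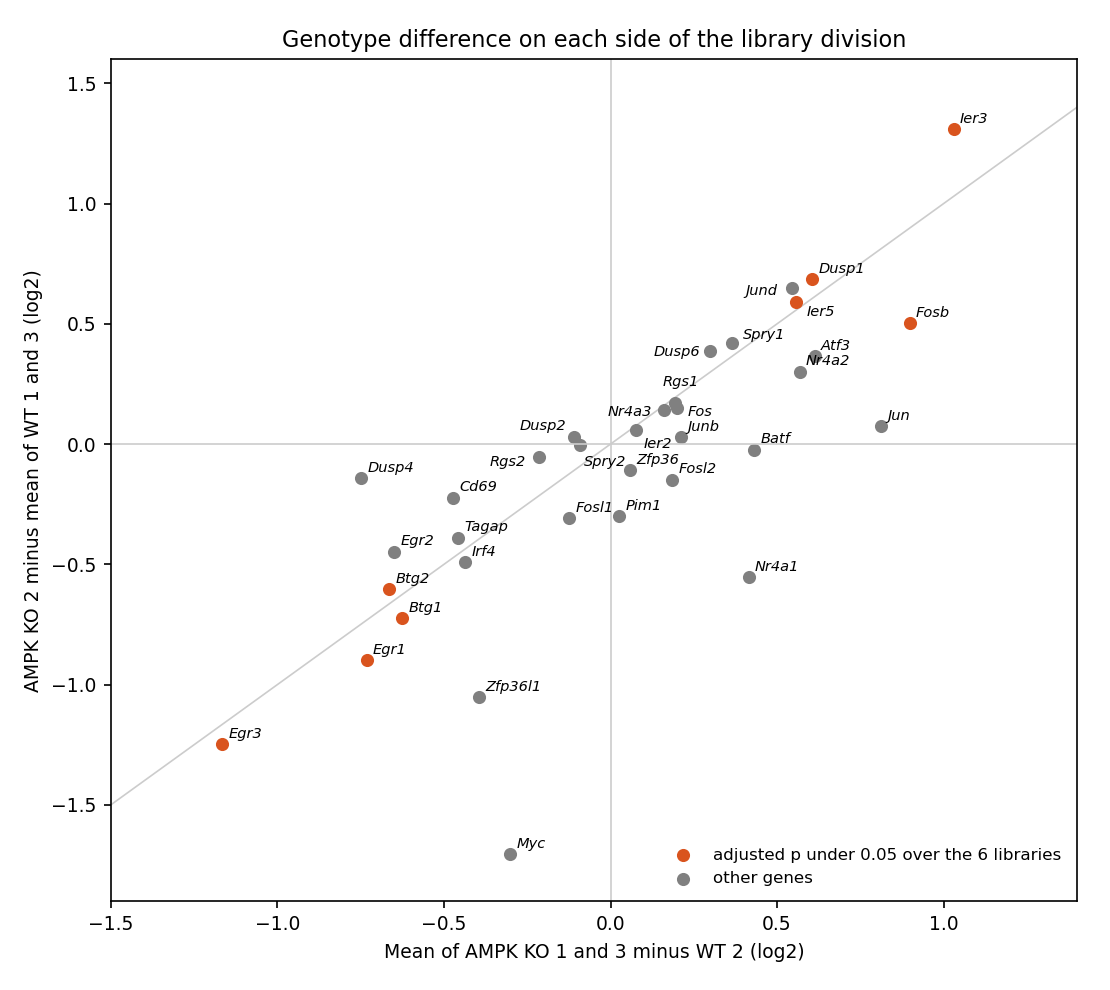
AMPK KO minus WT (log2) of the 35 tested genes within WT 2, AMPK KO 1 and AMPK KO 3 (horizontal) against the same within WT 1, WT 3 and AMPK KO 2 (vertical), with the line of equal values; orange marks an adjusted p under 0.05 over the 6 libraries. Egr3, Egr1, Btg1 and Btg2 lie low and left, Ier3, Dusp1, Ier5 and Fosb lie high and right, and Nr4a1 lies at 0.42 and -0.55.

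Of 37 tested genes among other primary response genes, 6 passed, 3 higher in AMPK KO and 3 lower, against 5.65% of all genes, and 23 means were higher and 14 lower, with a median difference of 0.30. Past the threshold and higher were Klf4 (0.76, adjusted p = 0.0253), a quiescence-linked Krüppel-like factor, Crem (0.75, adjusted p = 0.0221), a CREB relative, and Tnfrsf9 (0.72, adjusted p = 0.0245), the costimulatory receptor 4-1BB. Past the threshold and lower were Cd40lg (-1.76, adjusted p = 0.00296), the ligand of CD40 that helps B cells, Rel (-0.86, adjusted p = 0.00951), an NF-κB subunit, and Nfkbid (-0.74, adjusted p = 0.0150), an IκB protein. Cd40lg stood at 5.64 to 6.37 in WT and at 3.78 to 4.95 in AMPK KO, without overlap. The 6 calls became 0 without WT 1, 1 without WT 3, 2 without AMPK KO 1 and 16 without AMPK KO 2. Of 33 genes of the signalling upstream, from the receptor to SRF and CREB, only Prkd2 passed (-0.71, adjusted p = 0.0234), a protein kinase D of T cells, and the median was -0.05. Its call was lost without WT 1, WT 3, AMPK KO 1 or AMPK KO 3. Of 32 tested relatives of the 36 genes, 0 passed in limma and 0 in limma voom, with 4 at an unadjusted p under 0.05 in each, and the median was 0.13. In the fit with the division, Dusp10, Dusp14 and Zfp36l2 passed among these relatives, Dusp14 also did with a filter at a mean of 3 or a robust spread, and Tob2 did without AMPK KO 2.

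Among 14 genes of naive and quiescent T cells, 6 passed, all of them lower in AMPK KO, against 5.65% of all genes. Of the 14 means, 9 were lower and 5 higher, and the median was -0.56. Those that passed included Tcf7 (-1.66), Pik3ip1 (-1.05), Lef1 (-1.03), Bach2 (-0.80) and Il7r (-0.68), with adjusted p from 0.000719 to 0.0460. Of the 6 calls, 3 were left without WT 1, WT 3 or AMPK KO 1, namely Tcf7, Lef1 and Pik3ip1. Tcf7, the transcription factor TCF-1, stood at 5.37, 5.28 and 5.27 in WT and at 3.54 to 3.79 in AMPK KO. Among 10 heat shock genes, which encode chaperones and their partners, Hspa8 (1.59), Dnajb1 (0.76) and Hsp90aa1 (0.66) were higher in AMPK KO, with adjusted p of up to 0.0211 and a list median of 0.40. These 3 calls became 2 without WT 1, 1 (Hspa8) without WT 3 or AMPK KO 1, and 6 without AMPK KO 2.

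Among markers of other cells, only the summed B cell markers overlapped between the genotypes. The sums for macrophages or monocytes, CD8 T cells, NK cells and platelets were higher in AMPK KO, and the neutrophil sum was lower. All 14 macrophage or monocyte markers had higher means in AMPK KO and 7 passed, and their summed level was 487 to 540 CPM in WT and 947 to 1626 in AMPK KO. The sum was highest in AMPK KO 2. Ier3, which passed, and Atf3 and Jund, which did not, were highest in AMPK KO 2. Fosb (7.81) and Dusp1 (7.78), which passed as higher, were lowest there among the AMPK KO libraries, and Ier5 (9.21) lay between. Of the genes that passed as lower, Egr1 (8.92) and Btg1 (8.99) were lowest in AMPK KO 2. Egr3 (7.17) was highest there among the AMPK KO libraries, and Btg2 (8.11) lay between. C1qa stood at 5.58, 5.19 and 5.04 in WT and at 6.92, 8.04 and 6.42 in AMPK KO. Others that passed included Cd14 (1.87), C1qc (1.51), C1qb (1.503) and Vcam1 (1.24), with adjusted p of up to 0.00465, and 5 to 10 of the list passed when each library was left out. Summed T cell markers were 3180 to 3434 in WT and 2469 to 2958 in AMPK KO, and 9 of the 11 tested means were lower. Cd3e (-0.66), Cd3g (-0.93), Cd28 (-0.56) and Bcl11b (-0.55) passed as lower, with adjusted p of up to 0.0470, and Thy1 passed as higher (0.50, adjusted p = 0.0476). The 5 T cell calls became 0 without WT 1, 1 (Cd3g) without WT 3 or AMPK KO 1, and 3 without WT 2 or AMPK KO 3. Thy1 lost its call in these fits except that without AMPK KO 3, and also with scaling to reads outside Rn45s, with a pseudocount of 0.25 and in limma voom. Summed neutrophil markers were 795 to 904 in WT and 524 to 762 in AMPK KO (9 of 10 listed genes were found), with 5 of 8 tested means lower and 3 higher and Ngp (-1.53) and Ltf (-1.54) past the threshold. Ltf lost its call without WT 1, WT 2, WT 3 or AMPK KO 1. Among the markers of B cells, CD8 T cells and NK cells, 0 of 9, 0 of 2 and 0 of 6 passed in limma and in limma voom, with 1, 2 and 2 at an unadjusted p under 0.05 in limma. The B cell markers summed to 295 to 325 and 291 to 350. The 2 CD8 genes summed to 231 to 305 and 321 to 376. NK cell markers summed to 57.7 to 83.2 and 89.9 to 110 and platelet markers to 7.01 to 15.2 and 17.4 to 30.6, where Pf4 passed (1.62, adjusted p = 0.0268) but not without WT 1, WT 3, AMPK KO 1 or AMPK KO 3. No marker was at 0 in every library. The methods describe magnetic beads or a cell sorter for the isolation of immune cells. The reporting summary names magnetic beads for the CD4 and CD8 T cells of in vitro tests. It states a high purity of such cells by flow cytometry, with no value for single libraries. The part of other cells in the differences of the 36 genes was not tested.

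**Figure D5:**
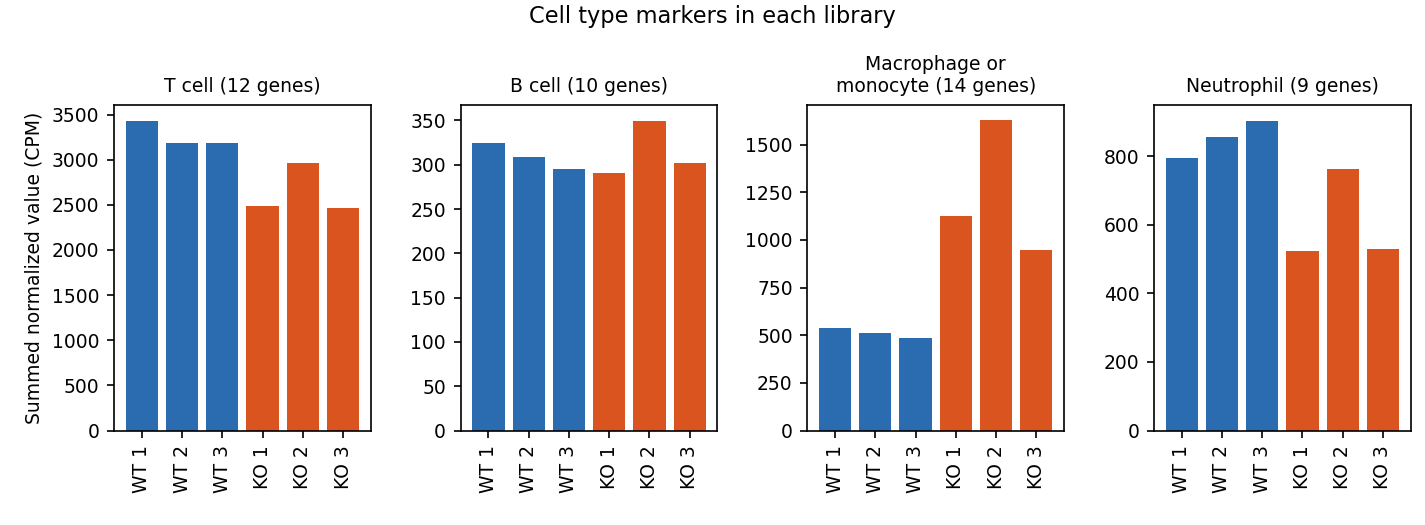
Summed level of cell type markers in each library (normalised CPM, from the deposited values), for T cells, B cells, macrophages or monocytes, and neutrophils; each bar is 1 library. The macrophage or monocyte sum is 487 to 540 in WT and 947 to 1626 in AMPK KO, highest in AMPK KO 2.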

How the data were processed

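For each of the 6 samples (3 WT, 3 AMPK KO), 500 ng of RNA went into a QuantSeq 3′ library. The authors deposited 1 table per sample with log2 values, which are log2 of TMM-normalised CPM plus 1. The submitters' processing notes name Bowtie2, bedtools and mm10; versions and strand handling are not given in the sources used here. The values step by single reads (100% of those at or below 100 reads were whole to within 0.1), which gave the reads and the depth of each library. A symbol on more than 1 row (35 symbols, none among the 36 genes) was left as listed.

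Genes with a mean log2 of at least 1 over the 6 libraries (11279) were fitted with lmFit and eBayes of limma 3.58.1 in R 4.3.3, with the genotype only and a trend of the spread with the mean. The two-sided p values were corrected over all tested genes (Benjamini-Hochberg) and called under 0.05. An exact permutation test of 3 against 3 cannot go below 0.1, so it made no call. A gene's spread is its sum of squares over the 6 libraries. The fit was tested on simulated data before use. All 36 genes are named; of the other lists, those past the threshold are named, up to 5 each way (markers included), with the defining T cell markers Cd3e and Cd4, Prkaa1 and Rn45s. Xist, Ddx3y, Tagap1, Prdx2, Ergic1 and the relatives called under alternatives were chosen after their values were seen. Of the quiescence genes past the threshold, 1 is not reported here. The 36 genes and all lists were chosen with earlier results of these data known. The alternatives were quantile normalization, scaling to reads outside Rn45s, other filters, a pseudocount of 0.25, a replicate block, leaving out each library, other estimates of the spread, limma voom on recovered reads and the library division as a term. Gene positions came from GENCODE and promoter sequence from RefSeq, both GRCm38; Ier2, Egr1, Egr3, Cd69, Fosl1, Myc, Rgs1 and Dusp4 were not shown. Tables and plots used Python 3.11.15 with pandas 2.3.3 and matplotlib 3.10.9.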

Additional observations from a re-analysis of the deposited data

How the results depend on the processing

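Egr3 was called in 15 of 16 alternatives, and the difference of each of the 8 called genes kept its direction in all 16. Of 558 values of single genes under the alternatives, 479 kept direction and side of the threshold, 41 lost the call, 19 gained it and 19 changed sign. The count of genes called over all genes, 637 as reported, was 1428 with the library division as a term, 308 with no filter, 102 with the replicate block, 73 without the trend of the spread, and 127 to 1246 when each library was left out. For the 36 genes the count of 8 became 16, 4, 1 and 0 in the same order and 2 to 15 with a library left out; without the trend, 11 had an unadjusted p under 0.05. For the 5 other lists without the cell type markers 16 became 33, 9, 5 and 2, and 5 to 34. Without the trend, 0 markers of T cells, macrophages, neutrophils or platelets were called, and with the block 0 of T cells, 5 of macrophages, 1 of neutrophils and 0 of platelets. The cause was not tested. The block and the omitted libraries leave fewer degrees of freedom. Over all genes, the count rose without WT 2 (728) or AMPK KO 2 (1246) and fell without any other single library. The replicate numbers did not pair the samples: deviations of same-numbered samples correlated at -0.08, -0.32 and -0.16 over genes. Scaling to reads outside Rn45s shifted the median of all genes from 0.02 to -0.05 and the share of calls that were higher from 45.1% to 32.6%, with 9 of the 36 genes called, Egr2 being added. Signs changed with the division as a term for Dusp2 (-0.0393) and Nr4a1 (-0.0698), with scaling outside Rn45s for Fosl2 (-0.0414), and with quantile normalization for Pim1 (0.0337) and Zfp36 (0.0167). With libraries left out, differences ranged from -0.12 to 0.27 for Batf, -0.324 to 0.0378 for Cd69, -0.54 to 0.15 for Fosl1, -0.104 to 0.0948 for Fosl2, -0.077 to 0.752 for Nr4a1, -0.12 to 0.15 for Pim1, -0.22 to 0.15 for Spry2 and -0.102 to 0.0167 for Zfp36. The quasi-likelihood count test that had been planned was not run, although reads could be recovered from the deposited log2 values. Limma voom was run on those reads. Depth limits Fosl1, Dusp5, Spry1, Spry2 and Myc, which had at most 140 reads in any library.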
